A study of Mus musculus with 18 samples.

Results

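A set of 8 genes of lipid uptake and storage was followed in sorted cells of the mouse small intestine: Cd36, Fabp4, Fabp5, Gpihbp1, Lpl, Plin2, Pparg and Scarb1. They were chosen by gene symbol, and all 8 were found, each on 1 line of every table, among 23238 distinct symbols. Levels were read in 18 libraries. Gpihbp1, Fabp4 and Plin2 were called higher in lacteal LECs than in intestinal stromal cells in both genotypes (as were 10.3% of genes tested in WT and 9.11% in KO), with WT means of 411 against 1.11 CPM, 761 against 108 CPM and 75.3 against 35.9 CPM. Cd36 also passed the threshold in the KO comparison, at 64.2 against 24.9 CPM. The Plin2 and Cd36 calls were lost with the replicate number as a block, and also when certain single libraries were left out. Between genotypes, edgeR called no member in LECs, where it called 0.0658% of genes tested, or in IntSCs, where it called 1.47%, while DESeq2 called Fabp4 in LECs (adjusted p = 0.0374). In LECs, every KO library lay above every WT library for Fabp4 and Gpihbp1, as was so for 3.48% of genes.

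Lacteals are the lymphatic capillaries of the intestinal villi, and they carry off dietary fat that enterocytes have packed into chylomicrons. Elsewhere in the body, capillary endothelium can also draw fatty acids from such particles: GPIHBP1 holds lipoprotein lipase (encoded by Lpl) on the lumenal surface, the enzyme frees fatty acids, and CD36 takes them up. Fatty acid binding proteins then carry them through the cytosol, perilipin 2 coats the droplets in which they are stored, and PPARγ is a fatty acid-sensing transcription factor that controls many of these genes.

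The study asked how stromal LATS1/2 deletion alters lacteals and their drainage of lipid. LECs (labelled lacteal LECs) and PDGFRb+ intestinal stromal cells (IntSCs) were sorted by flow cytometry from adult C57BL/6J mice, after the muscle layer, serosa and mesenteric fat had been stripped off and CD45+ and CD326+ cells depleted. IntSCs were depleted of CD31+ cells as well. By the labels, all mice carried a tamoxifen-inducible Cre (CreERT2) driven by Pdgfrb and the Tomato reporter, while the KO mice also carried Lats1 f/f and Lats2 f/f. The Cre is thus directed at PDGFRb+ cells and not at LECs. The study's methods define WT littermates as Cre-negative in general, whereas its legend for the LEC libraries names the Tomato reporter line for both genotypes, as the labels do. The groups were WT LECs (n = 4), KO LECs (n = 3), WT IntSCs (n = 6) and KO IntSCs (n = 5). The study's legends give as many mice per group as there are libraries, pooled from several independent experiments. The labels tie no library to a mouse or an experiment, so experiment could not be entered as a batch, and its part in the spread was not tested.

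Total counts per library ranged from 5361250 to 10549233. Values are CPM, counts scaled to a common library size of 1000000 reads with TMM factors of all 18 libraries. The detection floor was taken as 3 counts, which corresponded to 0.284 to 0.560 CPM of the total counts, before the TMM factors. The libraries were made from the 3′ ends of transcripts, so a transcript that has lost inner exons may still be counted. Lats1 lay between 3.28 and 13.5 CPM in WT LECs, 6.71 and 14.98 CPM in KO LECs, 0 and 30.1 CPM in WT IntSCs and 12.9 and 21.2 CPM in KO IntSCs, and Lats2 between 72.1 and 144, 13.7 and 126, 41.6 and 113, and 80.1 and 130 CPM. These overlapping ranges do not check the KO labels, which are used below as given. Cell identity was clearer. The 10 LEC markers summed to between 9546 and 15067 CPM in LEC libraries and to between 298 and 697 CPM in IntSC libraries, where Prox1, the defining lymphatic factor, stayed at or below 0.172 CPM. Of the 10 LEC markers, edgeR called 9 higher and 0 lower in WT LECs than in WT IntSCs. In KO it called 9 higher and 1 lower. Pdpn lay at 149 to 231 CPM in KO LECs, below the 251 to 392 CPM of KO IntSCs, and had the highest mean of the 10 in both IntSC groups. Certain libraries stood apart. WT LEC 1 held 2192 CPM of the 9 stromal markers against 663 to 718 CPM in the other WT LECs, WT LEC 3 held 459 CPM of the 9 enterocyte markers, the highest of the 18, and WT IntSC 6 held 86.3 CPM of the 8 Paneth and other epithelial markers against 1.76 to 10.5 CPM in the other WT IntSCs.

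**Figure D1:**
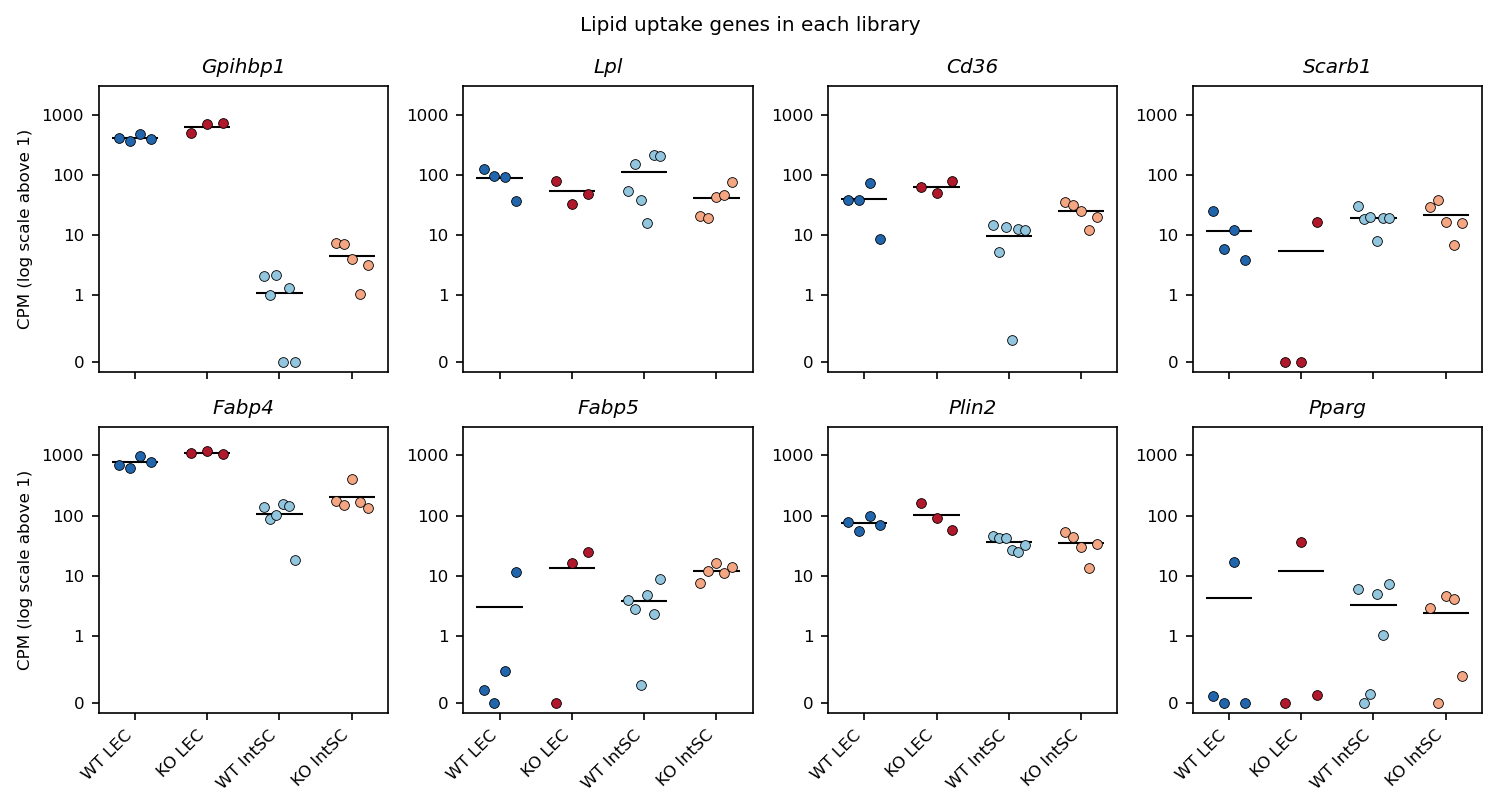
CPM of each lipid uptake gene in each library (points, in replicate order within a group) and the group mean (bar), on an axis that is linear from 0 to 1 and logarithmic above. Gpihbp1 and Fabp4 form separate LEC and IntSC bands, whereas Fabp5, Pparg and Scarb1 run from 0 to over 10 CPM within KO LECs.

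Gpihbp1 (chr15:75596630-75598213, RefSeq GRCm38.p6, used for all gene positions here) encodes the capillary anchor of lipoprotein lipase. Its level was 413, 362, 470 and 398 CPM in WT LEC 1 to 4, and 488, 694 and 729 CPM in KO LEC 1 to 3. In WT IntSCs the lowest, median and highest levels were 0, 1.17 and 2.17 CPM, and KO IntSC 1 to 5 gave 7.46, 6.99, 3.97, 1.04 and 3.19 CPM. Every LEC library was far above every IntSC library, and the KO LECs lay above the WT LECs. The order of means was KO LEC, WT LEC, KO IntSC and WT IntSC, at 637, 411, 4.53 and 1.11 CPM. In WT the LEC mean was 371 times the IntSC mean, with a fitted log2 fold change of 8.46 ± 0.62 (SE) and an adjusted p of 2.51e-07 by edgeR's quasi-likelihood test. The KO difference was 7.13 ± 0.53 (SE, adjusted p = 1.01e-05). Between the LEC groups it was 0.71 ± 0.24 (SE, adjusted p = 0.419), and between the IntSC groups 2.01 ± 1.25 (SE, adjusted p = 0.686), so neighbours of one cell type did not differ by the test. The IntSC values rest on 0 to 57 counts per library.

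Lpl (chr8:68880555-68906932) encodes the lipase itself, which parenchymal cells such as adipocytes and muscle make and pass to endothelium. WT LEC 1 to 4 held 126, 96.2, 91.8 and 37.0 CPM and KO LEC 1 to 3 held 80.1, 32.9 and 47.3 CPM. The 6 WT IntSC libraries spanned 16.0 to 213 CPM around a median of 104 CPM, and KO IntSC 1 to 5 held 20.6, 19.5, 42.4, 46.7 and 77.4 CPM. All 4 groups overlapped, and 3 WT IntSC libraries lay above every other library of the series. From the highest mean the order was WT IntSC, WT LEC, KO LEC and KO IntSC, at 114, 87.8, 53.4 and 41.3 CPM. The fitted KO against WT difference in IntSCs was -1.46 (95% interval -2.85 to -0.07), with an adjusted p of 0.469 by edgeR. In LECs it was -0.65 (95% interval -1.75 to 0.45, adjusted p = 0.971). Lpl was the member whose mean in both cell types was lower in the KO, and LECs and IntSCs did not differ by the test in WT (-0.36 ± 0.60, SE, adjusted p = 0.749) or KO (0.37 ± 0.53, SE, adjusted p = 0.696).

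Cd36 (chr5:17781690-17888959) encodes the fatty acid translocase of the plasma membrane. Its level in WT LEC 1 to 4 was 37.8, 37.7, 72.5 and 8.70 CPM, and in KO LEC 1 to 3 it was 62.2, 49.9 and 80.4 CPM. WT IntSCs gave a lowest, median and highest value of 0.337, 12.4 and 14.5 CPM, and KO IntSC 1 to 5 gave 35.5, 32.2, 25.0, 12.1 and 19.9 CPM. KO LECs lay above all KO IntSCs, while WT LEC 4 fell within the range of WT IntSCs and below the other LEC libraries. The means fell from 64.2 CPM in KO LECs to 39.2 in WT LECs, 24.9 in KO IntSCs and 9.77 in WT IntSCs. By edgeR's test the difference between LECs and IntSCs was 1.36 ± 0.44 in KO (SE, adjusted p = 0.0442), a call lost when any 1 of 7 of the 8 libraries was left out, all except KO LEC 2 (adjusted p 0.0536 to 0.108 without each of the 7). In WT it was 2.01 ± 0.76 (SE, adjusted p = 0.0719), a call gained without WT LEC 4 (adjusted p = 0.0364). The genotype difference was 1.35 in IntSCs (95% interval 0.12 to 2.58, adjusted p = 0.430) and 0.78 in LECs (95% interval -0.60 to 2.16, adjusted p = 0.989). WT LEC 3, the highest WT LEC library for Cd36, was also the highest for enterocyte markers, and enterocytes express Cd36. It was also the highest WT LEC library for Gpihbp1 (470 CPM), Fabp4 (958 CPM) and the summed LEC markers (12996 CPM). KO LECs had the higher Cd36 mean but enterocyte sums of 32.3 to 72.4 CPM, against 59.4 to 459 CPM in WT LECs. Of the 9 enterocyte markers, 6 exceeded 3 counts in some WT LEC library and 4 in some KO LEC library. Apoa1 was 47.0 to 241 CPM in WT LECs and 4.61 to 27.9 CPM in KO LECs, and Fabp1 10.3 to 156 and 5.58 to 27.4 CPM, while Alpi was at 0 in both groups, Mttp in WT LECs and Apoa4 and Vil1 in KO LECs. The part of enterocyte RNA in the Cd36 level was not tested.

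Scarb1 (chr5:125277087-125341094) encodes SR-BI, the receptor that takes up cholesteryl esters from HDL. WT LEC 1 to 4 held 24.9, 5.93, 12.3 and 3.90 CPM, whereas KO LEC 1 and 2 held no count and KO LEC 3 held 16.4 CPM (132 counts). WT IntSCs ran from 8.09 CPM through a median of 19.5 to 30.9 CPM, and KO IntSC 1 to 5 held 29.3, 38.2, 16.8, 6.87 and 15.8 CPM. The counts of 0 allow a level of up to 0.435 CPM (before the TMM factors) in KO LEC libraries, and KO LEC 3 lay above that level. This floor covers the counting error of reads only. PCR copies cannot be told from separate molecules, so how many molecules gave the 132 counts is not known. Scarb1 had its highest mean in KO IntSCs (21.4 CPM), followed by WT IntSCs (19.4 CPM), WT LECs (11.8 CPM) and KO LECs (5.46 CPM). No neighbours in this order differed by edgeR's test, with adjusted p-values of 0.980 between the IntSC groups, 0.541 between WT cell types and 0.9999 between the LEC groups. KO LECs and KO IntSCs did not differ either (adjusted p = 0.469), but without KO LEC 3 they did (adjusted p = 0.00245), as did the difference of genotype effects between cell types (adjusted p = 0.00495). With both remaining KO LEC libraries at 0, the fitted fold change depends on the prior count and is not given.

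Fabp4 (chr3:10204342-10208616) encodes the fatty acid binding protein of adipocytes, macrophages and capillary endothelium. WT LEC 1 to 4 held 682, 621, 958 and 785 CPM, and KO LEC 1 to 3 held 1075, 1196 and 1058 CPM. WT IntSCs had a lowest, median and highest level of 18.1, 122 and 153 CPM, and KO IntSC 1 to 5 had 174, 148, 411, 165 and 136 CPM. All LEC libraries exceeded all IntSC libraries, all KO LECs exceeded all WT LECs, and KO IntSC 3 stood above the other KO IntSCs. The means were 1110, 761, 207 and 108 CPM in KO LECs, WT LECs, KO IntSCs and WT IntSCs. In WT the LEC to IntSC difference was 2.83 ± 0.41 (SE, adjusted p = 1.72e-04, edgeR) and in KO it was 2.42 ± 0.35 (SE, adjusted p = 6.92e-04). The KO against WT difference was 0.62 in LECs (95% interval 0.16 to 1.07, adjusted p = 0.446) and 0.94 in IntSCs (95% interval 0.04 to 1.85, adjusted p = 0.471). By DESeq2 the LEC difference had an adjusted p of 0.0374, whereas over all 18 alternatives run its adjusted p ranged from that value to 0.9996.

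Fabp5 (chr3:10012585-10016610) encodes the epidermal type fatty acid binding protein, found in many cells. RefSeq lists a pseudogene, Fabp5l2, so its count may hold reads from a near copy. WT LEC 1 to 4 held 0.190, 0, 0.469 and 11.4 CPM, and KO LEC 1 to 3 held 0, 16.0 and 24.8 CPM. In counts, the 7 LEC libraries ran from 0 to 200, with 3 libraries over 100 and the other 4 at 5 or fewer, in both genotypes. WT IntSCs gave 0.271, 3.36 and 8.86 CPM as lowest, median and highest, and KO IntSC 1 to 5 gave 7.59, 11.8, 16.2, 10.9 and 14.0 CPM, of which 4 lay above every WT IntSC library. The mean levels were 13.6 CPM in KO LECs, 12.1 in KO IntSCs, 3.82 in WT IntSCs and 3.02 in WT LECs. The fitted difference between IntSC genotypes was 1.66 (95% interval 0.06 to 3.26, adjusted p = 0.478 by edgeR). In LECs it was 2.27, with an interval from -2.80 to 7.34, which allows a change in either direction.

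Plin2 (chr4:86626910-86670217), the gene of the droplet coat protein perilipin 2, was called different between cell types in both genotypes in the main edgeR fits. With the replicate number as a block, edgeR called it in neither (adjusted p = 0.184 in WT and 0.203 in KO). WT LEC 1 to 4 held 78.0, 54.6, 98.2 and 70.5 CPM and KO LEC 1 to 3 held 161, 91.3 and 56.5 CPM. WT IntSCs had a lowest, median and highest value of 24.8, 37.4 and 46.4 CPM, and KO IntSC 1 to 5 had 54.1, 44.4, 30.3, 13.3 and 33.5 CPM. LECs lay above IntSCs within each genotype, and the genotypes overlapped within each cell type. Mean levels ran from 103 CPM in KO LECs through 75.3 in WT LECs to 35.9 and 35.1 in WT and KO IntSCs. In WT the cell types differed by 1.08 ± 0.32 (SE, adjusted p = 0.0235, edgeR), a call lost without WT LEC 3 (adjusted p = 0.0841) or WT IntSC 5 (0.0516). In KO the difference was 1.55 ± 0.47 (SE, adjusted p = 0.0354), lost without KO LEC 1 (0.142), KO LEC 2 (0.0517), KO IntSC 2 (0.0542), KO IntSC 3 (0.0750) or KO IntSC 5 (0.0724). The genotype difference in IntSCs was -0.03, and its 95% interval, -0.73 to 0.66, lay within a log2 change of 1 in either direction. In LECs it was 0.52 (95% interval -0.41 to 1.45, adjusted p = 0.995).

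Pparg (chr6:115360879-115490404), the transcription factor gene, was at 3 counts or fewer in 9 of the 18 libraries. WT LEC 1 to 4 held 0.0952, 0, 16.98 and 0 CPM and KO LEC 1 to 3 held 0, 35.7 and 0.124 CPM, so WT LEC 3 (181 counts) and KO LEC 2 (346 counts) alone carried its LEC signal. WT IntSCs ran from 0 through a median of 3.05 to 7.38 CPM, and KO IntSC 1 to 5 held 2.88, 0, 4.57, 4.03 and 0.399 CPM. The 4 groups overlapped, with means of 12.0, 4.27, 3.26 and 2.38 CPM in KO LECs, WT LECs, WT IntSCs and KO IntSCs. In LECs the filter on low counts kept Pparg out of the fit, and a two-sided exact permutation test on log2(CPM + 1) gave p = 0.514, where 4 against 3 libraries cannot give less than 0.0571. In the other comparisons its adjusted p was 0.457 or higher by edgeR. KO LEC 1, with no Pparg count, held 1075 CPM of Fabp4 and 161 CPM of Plin2. WT LEC 3 and KO LEC 2, which carried the Pparg signal, held 958 and 1196 CPM of Fabp4, each the highest of its group. Their Plin2 levels were 98.2 and 91.3 CPM. A relation of Pparg to these genes was not tested.

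The promoter windows of Cd36 and Plin2 are shown because both genes were higher in KO LECs than in KO IntSCs and each had an entry in the RefSeq promoter table, which matched 3 of the 8 members (the third was Pparg). Each run is the 250 bases before 1 annotated start on the minus strand of GRCm38.p6, at chr5:17835897-17836146 for Cd36 and chr4:86670060-86670309 for Plin2. Of the GENCODE transcripts of these genes, 0 held the bases just after the Cd36 start and 1 held those after the Plin2 start. The Cd36 window also lies inside the gene span given above. Use of either start in these cells was not tested. Capitals mark AGGTCA, the single receptor site of nuclear receptors such as PPARγ, here as its reverse complement TGACCT, and in Cd36 also GGAAT, the core letters bound by TEAD factors, the partners of YAP/TAZ.

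Cd36: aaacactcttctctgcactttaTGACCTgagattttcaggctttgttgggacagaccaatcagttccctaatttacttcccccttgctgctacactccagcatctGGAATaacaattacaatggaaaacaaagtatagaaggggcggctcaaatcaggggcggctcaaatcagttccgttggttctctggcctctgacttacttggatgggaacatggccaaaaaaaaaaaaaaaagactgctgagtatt
Plin2: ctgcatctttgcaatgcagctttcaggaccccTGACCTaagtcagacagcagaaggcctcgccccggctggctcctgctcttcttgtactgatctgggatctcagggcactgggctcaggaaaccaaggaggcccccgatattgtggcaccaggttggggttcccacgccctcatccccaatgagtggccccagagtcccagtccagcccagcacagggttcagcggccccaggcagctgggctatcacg

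Both strands were searched. AGGTCA (or TGACCT) was present in 14.0% and GGAAT (or ATTCC) in 34.1% of 32536 distinct promoter windows of the same length. The full direct repeat AGGTCANAGGTCA, which contains that site at each end, was in 0.0338% of windows and in neither of these. The matches describe the letters only.

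Across the members, 3 of 8 were called higher in WT LECs than in WT IntSCs (Fabp4, Gpihbp1 and Plin2), where 10.3% of the 12203 genes tested were called higher and 22.6% in either direction. In the KO comparison 4 of 8 were called higher, against 9.11% of 12758 genes, and 25.9% were called in either direction. No member was called lower in LECs in either. The median fitted difference of the members was 0.74 in WT and 1.45 in KO, beside -0.04 and -0.21 over all genes. The same members had no overlap between the cell types' libraries: 3 in WT (9.65% of genes were higher without overlap) and 4 in KO (11.4%). These comparisons share no libraries with each other. In bulk RNA, fewer cells of a type and less RNA per cell cannot be told apart.

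**Figure D2:**
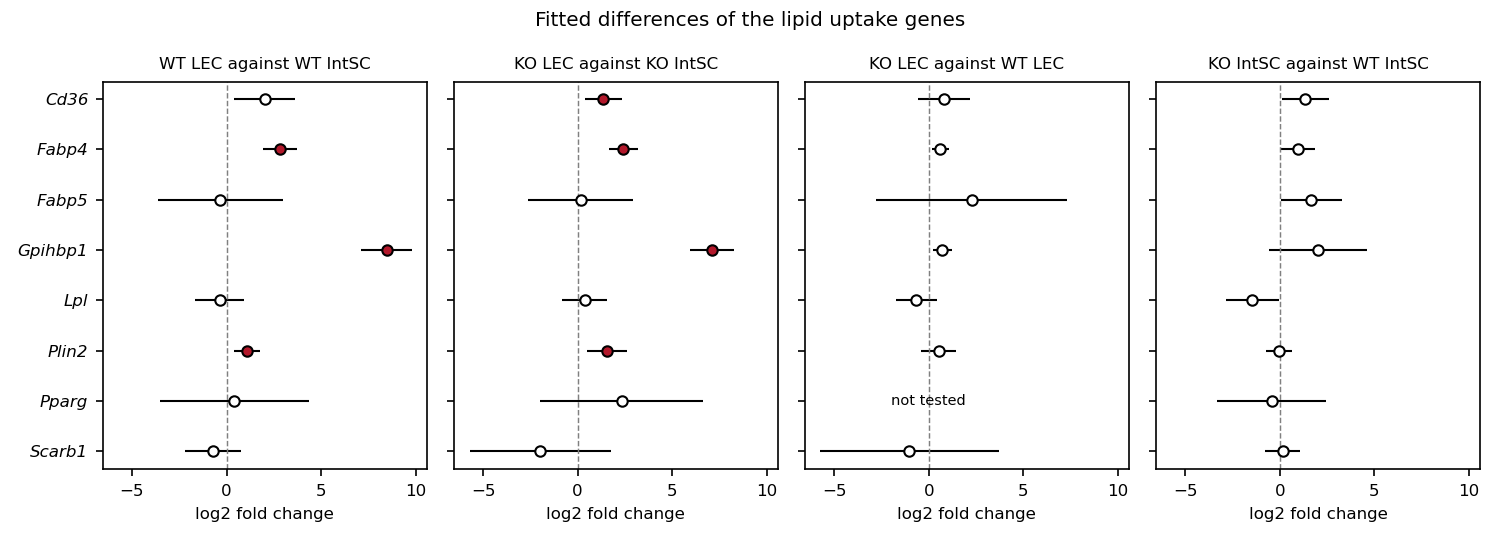
Fitted log2 fold change (point) and 95% interval (bar) of each lipid uptake gene in 4 comparisons, filled where the adjusted p was under 0.05 by edgeR. Filled points are Fabp4, Gpihbp1 and Plin2 in both comparisons of LECs with IntSCs and Cd36 in KO only, and none in the genotype comparisons.

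Between genotypes 0 members were called. In LECs 7 of the 8 were tested, and the background was 7 of 10639 genes, or 0.0658%. Before adjustment, 2 members (Fabp4 and Gpihbp1) had an edgeR p under 0.05, as did 7.87% of genes. Their KO LEC libraries lay wholly above the WT LECs, as for 3.48% of genes (9.93% in either direction). DESeq2 called Fabp4, and limma-voom called no member. In IntSCs 1.47% of 12421 genes were called, and 4 of 8 members (Cd36, Fabp4, Fabp5 and Lpl) had an unadjusted p under 0.05, as did 9.81% of genes. Lpl was the lower of these in the KO, and the other 3 were higher. No member was free of overlap between IntSC genotypes (2.83% of genes in either direction), and neither DESeq2 nor limma-voom called a member. The difference of genotype effects between LECs and IntSCs reached an adjusted p under 0.05 for 0 of the 8 members and 1.70% of 14015 genes, and for no member before adjustment or by DESeq2 or limma-voom. Its interval for Fabp4 was wide, with a difference of -0.40 ± 0.60 (SE).

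The spread within LECs was itself a feature. Of 11208 genes with at least 1 LEC library at 100 counts or more, 4773 (42.6%) also had a LEC library at 3 counts or fewer. Fabp5, Pparg and Scarb1 were 3 of the 8 members of that kind. In IntSCs the share was 18.2%, with 2 of 6 members (Cd36 and Fabp5). Gpihbp1 and Fabp4 had SDs of 10.98% and 19.4% of the mean in WT LECs, against 186% for Fabp5 and 199% for Pparg.

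Several members are also expressed by other cells, whose markers were read alongside. Fabp4, Cd36, Lpl, Plin2 and Pparg are genes of adipocytes. Of 7 adipocyte markers, 1 (Thrsp) exceeded 3 counts in any LEC library, and Adipoq was at 0 in all KO LECs and at most 0.124 CPM in WT LECs. The summed list was 96.2 to 229 CPM in WT LECs and 8.53 to 162 CPM in KO LECs, and 0 to 14.8 CPM in WT IntSCs and 0.597 to 27.1 CPM in KO IntSCs. Blood capillaries express Gpihbp1, Cd36 and Fabp4. The 11 blood endothelial markers, of which LECs share some, summed to 642 to 1091 CPM in WT LECs, 548 to 696 CPM in KO LECs, 1444 to 2914 CPM in WT IntSCs and 1143 to 1782 CPM in KO IntSCs. All 11 exceeded 3 counts in some WT LEC library and 7 in some KO LEC library. In KO LECs Esm1, Sox17 and Vwf were at 0, while Cd34 was 114 to 192 CPM, Plvap 60.8 to 136 CPM and Ly6c1 16.1 to 29.1 CPM. In IntSCs, all 11 were above 3 counts in some library of each genotype, and Flt1, the VEGF receptor of blood vessels, was 34.3 to 84.6 CPM in WT and 41.9 to 174 CPM in KO. Cd34 was the highest of the 11 there, at 1044 to 2612 CPM in WT IntSCs and 713 to 889 CPM in KO IntSCs, so the IntSC sums largely follow Cd34. Between IntSC genotypes, 7 of the 11 had a fitted difference above 0 and 4 below 0. edgeR called 1 higher and 1 lower in KO. The part of blood endothelium in the LEC and IntSC levels of these genes was not tested.

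Macrophages express Fabp4, Plin2 and Lpl. Their 8 markers summed to 0.100 to 17.3 CPM in WT LECs, 0.207 to 5.45 CPM in KO LECs, 24.9 to 51.8 CPM in WT IntSCs and 34.4 to 44.4 CPM in KO IntSCs. In each IntSC group 6 of the 8 exceeded 3 counts in some library, with Cd68 at 15.2 to 31.5 CPM and Csf1r at 5.18 to 12.9 CPM over the IntSC libraries and Fcgr1 at 0. The 9 enterocyte markers summed to 59.4 to 459 CPM in WT LECs, 32.3 to 72.4 CPM in KO LECs, 0.688 to 54.4 CPM in WT IntSCs and 20.2 to 69.8 CPM in KO IntSCs. The 8 Paneth and other epithelial markers had higher sums in KO in both cell types. They summed to 10.4 to 26.9 CPM in WT LECs, 86.1 to 346 CPM in KO LECs, 1.76 to 86.3 CPM in WT IntSCs and 100 to 210 CPM in KO IntSCs. Defa24 had the highest mean in KO LECs, at 114 CPM. Between LEC genotypes 4 of the 8 were tested, all with a fitted difference above 0, and edgeR called 0. Muc2 reached 17.7 CPM in WT LECs and 0.103 CPM in KO LECs, and Krt19 overlapped (0 to 19.9 and 0 to 17.7 CPM). Between IntSC genotypes 7 were tested, all above 0, and edgeR called 3 higher. The 9 stromal markers were lower in KO LECs (334 to 580 CPM) than in WT LECs (663 to 2192 CPM), and were 11873 to 18037 CPM in WT IntSCs and 8244 to 13338 CPM in KO IntSCs. The 5 T, B and plasma cell markers summed to 11.5 to 54.1 CPM in WT LECs and 0.419 to 2.61 CPM in KO LECs, without overlap, and to 29.0 to 84.8 CPM in WT IntSCs and 29.4 to 75.8 CPM in KO IntSCs. In LECs the plasma cell gene Jchain was the 1 marker above 3 counts in any library, and Cd3e, Cd3g and Cd79a were at 0. The 10 smooth muscle and pericyte markers summed to 221 to 342 CPM in WT LECs, 218 to 248 CPM in KO LECs, 1373 to 2039 CPM in WT IntSCs and 1513 to 2682 CPM in KO IntSCs. The part of these cells in the differences of the members was not tested.

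**Figure D3:**
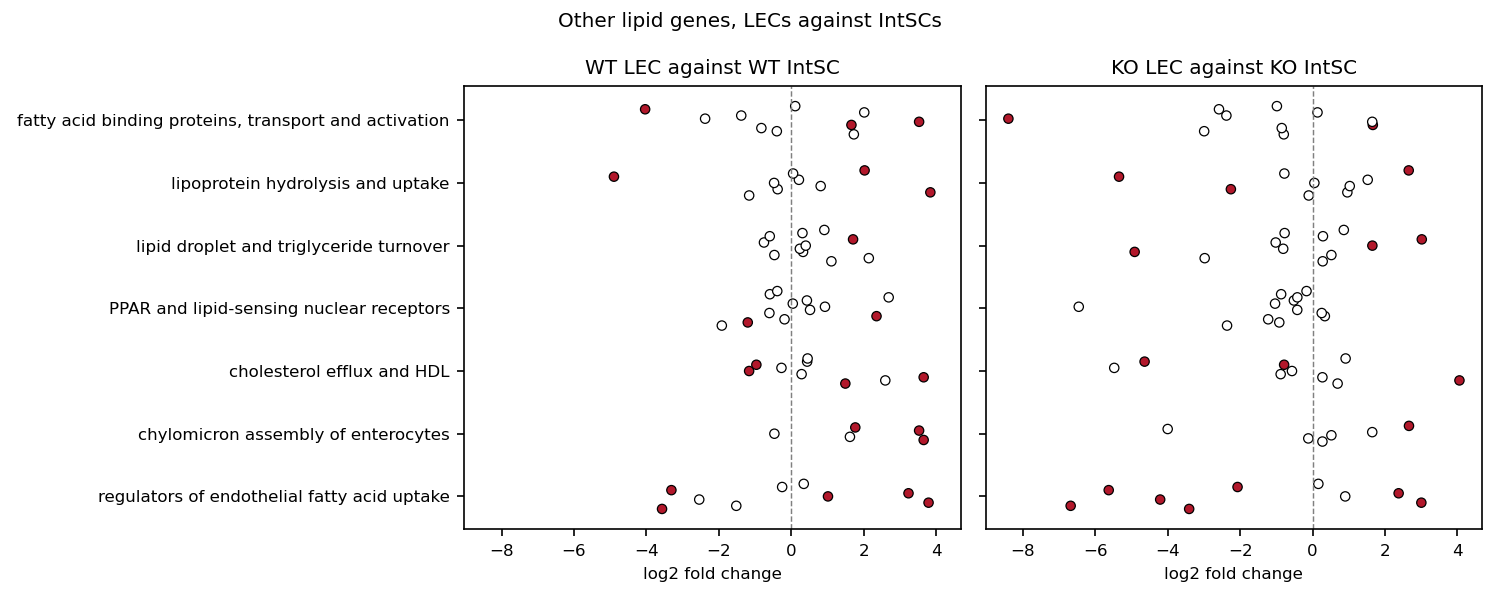
Fitted log2 fold change of the other lipid genes, by list, in LECs against IntSCs of each genotype, 1 point per gene tested, filled where the adjusted p was under 0.05. Called genes lie on both sides of 0 in most lists, and Fabp1 and Apoa1 are drawn in each of 2 lists.

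Other genes of lipid handling were read in 7 lists of 9 to 16 genes. Over the 7 lists, edgeR called 19 of 62 genes tested between WT cell types and 19 of 63 between KO cell types. Of all genes tested it called 22.6% in WT (10.3% higher in LECs) and 25.9% in KO (9.11% higher). The counts per list below are to be read beside these shares. Among the other fatty acid binding proteins, transporters and activating enzymes, 2 of 10 tested were called higher and 1 lower in WT LECs. Acsl5, which activates long-chain fatty acids, had means of 136 against 43.1 CPM (1.66, adjusted p = 0.00554), Fabp1, the liver and enterocyte binding protein, 63.0 against 5.47 CPM (3.53, adjusted p = 0.0248), and the transporter Slc27a3 1.87 against 31.1 CPM (-4.03, adjusted p = 0.00957). Fabp1 lost its call without WT LEC 2 (adjusted p = 0.0542) or WT LEC 3 (0.138). In KO, 1 of 10 was higher (Acsl5, 1.66, adjusted p = 0.0210, lost without KO LEC 2 at 0.140) and 1 lower. The latter, Fabp3, the heart type binding protein, was at 0 in all 3 KO LECs and averaged 5.39 CPM in KO IntSCs (adjusted p = 0.0339, lost without any 1 KO LEC library, at 0.0608 to 0.0618). That mean was at least 12.4-fold higher against a floor of 3 counts per library, taken before the TMM factors.

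Of the genes of lipoprotein hydrolysis and uptake, 2 of 9 were called higher and 1 lower in WT LECs, and 1 higher and 2 lower in KO LECs. Lrp1, a large receptor for remnant lipoproteins, averaged 67.0 CPM in WT LECs against 1997 CPM in WT IntSCs (-4.90, adjusted p = 1.36e-06) and 39.7 against 1610 CPM in KO (-5.35, adjusted p = 1.10e-05). Vldlr, a receptor for triglyceride-rich particles, went the other way, with 2.03 in WT (adjusted p = 0.0385) and 2.65 in KO (adjusted p = 0.00132). Its WT call was lost without any 1 of 7 libraries, namely WT LEC 2, 3 or 4 or WT IntSC 1, 4, 5 or 6 (adjusted p 0.0611 to 0.0981), and its KO call stood in each of the 8 fits with 1 library left out. Apoc3, an enterocyte apolipoprotein, was higher in WT LECs (3.84, adjusted p = 0.0187, lost without WT LEC 3 at 0.0759), and Apoe was lower in KO LECs than in KO IntSCs (-2.26, adjusted p = 8.58e-05).

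Among lipid droplet and triglyceride genes, Mgll, the monoglyceride lipase, averaged 1165 CPM in WT LECs against 358 CPM in WT IntSCs (1.71, adjusted p = 5.83e-06), the 1 called of 11. In KO it averaged 1636 against 202 CPM (3.01, adjusted p = 2.92e-05). There, Hilpda, a droplet protein that inhibits lipolysis, was also higher (1.65, adjusted p = 0.00464) and Dgat2, which makes triglyceride, lower (0.478 against 14.9 CPM, adjusted p = 0.0285, lost without KO LEC 2 or KO IntSC 1, 2 or 3, at 0.0508 to 0.0744). Among the lipid-sensing nuclear receptors and cofactors, 1 of 12 was called higher in WT LECs, the liver X receptor gene Nr1h3 (2.36, adjusted p = 2.20e-04), and 1 lower, the corepressor gene Ncor1 (-1.20, adjusted p = 0.00186). In KO none of 12 was called by edgeR, and the smallest p was that of Ppargc1a (adjusted p = 0.0514, and 0.0129 without KO IntSC 4), at 0.0466 against 5.22 CPM. Before adjustment 2 of the 12 had a p under 0.05, as did 37.1% of all genes tested. DESeq2 called 2 of the 12 and limma-voom 1.

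Cholesterol efflux and HDL genes gave 2 higher and 2 lower of 9 in WT LECs. Abca1, the cholesterol exporter, was higher (1.495, adjusted p = 0.00284), as was Apoa1, the main HDL apolipoprotein and an enterocyte marker (3.66, adjusted p = 8.76e-04). Npc2, which carries lysosomal cholesterol (-1.16, adjusted p = 0.00373), and the phospholipid transfer protein gene Pltp (-0.96, adjusted p = 0.00260) were lower. In KO, Abcg1 was higher (4.05, adjusted p = 0.0408), and Soat1 (-4.64, adjusted p = 0.0185) and Pltp (-0.79, adjusted p = 0.0395) were lower. All 3 lost the KO call without 1 library: Abcg1 without KO LEC 1 or KO IntSC 1, 2, 3 or 4, Soat1 without KO IntSC 1 or 3, and Pltp without KO LEC 2 or 3 or KO IntSC 1, 2, 3 or 5 (adjusted p 0.0514 to 0.179 over these). Of the chylomicron assembly genes, 3 of 5 were higher in WT LECs, Apoa1, Fabp1 and Sar1b, the GTPase of chylomicron export (1.77, adjusted p = 0.0362, lost without WT LEC 2 or 3 or WT IntSC 1, 2, 4 or 5, at 0.0590 to 0.156). Sar1b was the 1 called of 6 in KO (2.66, adjusted p = 0.00593). Apoa1 and Fabp1 are also among the 9 enterocyte markers, and the part of enterocyte RNA in their LEC levels was not tested.

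Regulators of endothelial fatty acid uptake gave 3 higher and 2 lower of 9 in WT LECs, and 2 higher and 5 lower in KO LECs. Of all genes tested, 22.6% in WT and 25.9% in KO were called in either direction. Cav1, the caveolar coat protein, averaged 538 against 39.1 CPM in WT (3.79, adjusted p = 1.98e-07) and 438 against 54.5 CPM in KO (3.002, adjusted p = 3.19e-04). Notch1 was higher in both (3.24, adjusted p = 3.34e-05, and 2.37, adjusted p = 5.82e-04). The VEGF-B coreceptor gene Nrp1 (-3.31, adjusted p = 0.00331, and -5.63, adjusted p = 4.93e-04) and Angptl2 (-3.57, adjusted p = 7.98e-06, and -3.41, adjusted p = 6.76e-04) were lower in both.

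Between LEC genotypes, edgeR called 0 of the 62 listed genes tested and 0.0658% of all genes. Before adjustment 9 of the 62 had a p under 0.05, as did 7.87% of all genes. DESeq2 called 4 of the 62 and limma-voom 0. The gene with the smallest p in its list was Fabp1 (-1.84, adjusted p = 0.707), Apoe (-1.22, 0.414), Hilpda (1.54, 0.374), Nr1h3 (-3.36, 0.170), Apoa1 for 2 lists (-2.70, 0.282) and Nrp1 (-2.56, 0.893). Nr1h3 averaged 207 CPM in WT LECs and 18.9 CPM in KO LECs, and DESeq2 called it (adjusted p = 4.15e-04), as it did Apoa1 (0.0151). In IntSCs edgeR called 3 of the 62 listed genes tested, as did limma-voom, and DESeq2 called 4. Of all genes there, edgeR called 1.47%. Slc27a3 was higher in KO, at 69.5 against 31.1 CPM (1.16, adjusted p = 0.0222), and lost its call without WT IntSC 1 or KO IntSC 1, 3, 4 or 5 (0.0504 to 0.0757). Mgll was lower, at 202 against 358 CPM (-0.82, adjusted p = 0.0393), a call kept in 1 of the 11 fits with 1 library left out, that without KO IntSC 4. Angptl2 was lower, at 196 against 383 CPM (-0.96, adjusted p = 0.0172), except without KO IntSC 2 or 5 (0.0610 and 0.0614). In the lists with no call by edgeR the smallest p was that of Apoe (0.57, adjusted p = 0.306, and 0.0488 without WT IntSC 3), Nr1h3 (-1.44, 0.0924, 0.0471 without WT IntSC 6, and 0.0262 by DESeq2, which called it), Npc1 (0.97, 0.221) and Mttp (1.59, 0.851).

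By edgeR the genotype effect differed between cell types for 2 of the 76 listed genes tested and for 1.70% of all genes. Before adjustment 16 of the 76 had a p under 0.05, as did 15.8% of all genes. DESeq2 called 6 of the 76 and limma-voom 1. For Apoe the effect in LECs minus that in IntSCs was -1.87 (adjusted p = 0.0354), and for Mgll it was 1.32 (adjusted p = 0.0250). The Apoe call was lost in 11 of 18 fits with 1 library left out (adjusted p up to 0.0746), all except those without WT LEC 1, 2 or 4, KO LEC 2 or 3, WT IntSC 3 or KO IntSC 4, and the Mgll call in 5 of 18, those without WT LEC 1, KO LEC 1 or KO IntSC 1, 3 or 5 (up to 0.0558). In the other lists edgeR called none, and the smallest p belonged to Fabp2 (adjusted p = 0.126), Nr1h3 (0.227, and 0.0433 without KO LEC 2), Soat1 (0.0601, and 0.0400 without WT LEC 1), Apoa1 (0.115) and Tcf15 (0.227). Of these DESeq2 called Soat1 (adjusted p = 6.44e-04) and Apoa1 (0.0346).

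Likeness of pattern was measured as the root mean square difference of log2(CPM + 1), each gene centred on its own mean, over the 18 libraries and 14015 genes. Closest to Plin2 were Scamp1 (0.35) and Fis1 (0.41), and closest to Fabp4 were Rassf3 (0.54) and Tmsb4x (0.58). Cd36 was most like Asb6 (0.64) and Desi1 (0.83), Scarb1 most like Cacfd1 (0.69) and Ccar1 (0.70), Gpihbp1 most like Aqp1 (0.74) and Gmfg (0.77), and Lpl most like Serpine2 (0.77) and Elavl4 (0.79). Aqp1, the water channel, averaged 13173 and 11584 CPM in WT and KO LECs against 47.6 and 89.4 CPM in WT and KO IntSCs. Elavl4 had a mean of 0 CPM in both LEC groups and of 1.81 and 0.0240 CPM in WT and KO IntSCs, so its distance largely measures the spread of Lpl alone and shows no shared pattern. These values are descriptions over libraries that share cell types, and Fabp5 and Pparg were too low to be matched.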

How the data were processed

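RNA of sorted cells was extracted with Trizol and made into QuantSeq 3′ libraries. Per the labels, the authors' processing notes name Bowtie2, edgeR and the build mm10, whereas the study's methods name TopHat and Cufflinks. The counting program and annotation are not given in the sources used here. For every library the authors deposited a table of raw counts, which are whole numbers of reads per gene symbol without normalisation, and 35 symbols on more than 1 of the 23282 lines were summed. No 2 libraries held the same counts.

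Samples were grouped and numbered by their titles. Differences were tested on the counts with R 4.3.3 and its package edgeR 4.0.16 (TMM factors, filterByExpr, robust glmQLFit and glmQLFTest, Benjamini-Hochberg adjustment over all genes tested, threshold 0.05). Each pairwise fit held the 2 groups compared, and the interaction held all 4. Pparg in LECs was tested by exact permutation (scipy 1.17.1). The alternatives were DESeq2 1.42.0, limma-voom 3.58.1, other scaling factors and filters, no Rn45s (the ribosomal RNA precursor, 7.02% to 24.4% of counts), log2 CPM of Xist as a covariate, the replicate number as a block, all 4 groups in 1 fit and each library left out. On simulated data, a log2 change of 2 was recovered for 21.0% of 200 changed genes between LEC genotypes, 89.5% between IntSC genotypes, 52.5% between WT cell types and 31.5% between KO cell types. The simulation used the dispersions fitted to these data and drew the changed genes from those above a set mean CPM. Recovery was thus not measured for genes as low as Fabp5, Pparg and Scarb1 in LECs.

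The members and lists were chosen with earlier results of these data known. From the other lists, every called gene up to the 4 with the smallest p was named, or otherwise the gene with the smallest p. For the members at 20 CPM or more in a group, the 2 genes most alike were named. Promoter sequences and gene positions are from RefSeq (GRCm38.p6). The count floor covers counting error only, because without molecular identifiers PCR copies cannot be told from separate molecules.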

Additional observations from a re-analysis of the deposited data

Results flagged for a closer look

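Of 51 groups of 4 to 6 libraries examined, members and marker sums together, 5 held a library far from the rest by Dixon's test on CPM. That test would flag about 1 in 20 groups, or 2.55, if values were independent and normally distributed. Groups such as Pparg in WT LECs, with an SD of 199% of the mean, are not, so no excess over chance can be read from the 5. Fabp4 reached 410.8 CPM in KO IntSC 3, against 136 to 174 CPM in the other 4 KO IntSCs. Fabp5 reached 11.4 CPM in WT LEC 4, against 0 to 0.469 CPM in the other WT LECs, and Pparg reached 16.98 CPM in WT LEC 3, against 0 to 0.0952 CPM. The stromal markers summed to 2192 CPM in WT LEC 1, against 663 to 718 CPM in the other WT LECs, and the Paneth and other epithelial markers to 86.3 CPM in WT IntSC 6, against 1.76 to 10.5 CPM in the other WT IntSCs. KO LECs, with 3 libraries, were not examined in this way.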

How the results depend on the processing

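The called differences of Gpihbp1 and Fabp4 between LECs and IntSCs, and the 0 calls among members between IntSC genotypes, stood under every alternative run. DESeq2 called 1 member between LEC genotypes (Fabp4), all others none. For the KO cell types the members called numbered 2 with the replicate block and 2 to 4 with 1 library left out, and for the interaction 0 to 1, the 1 being Scarb1 without KO LEC 3. Cd36 was called between WT cell types by DESeq2 (adjusted p = 0.0485) and with all 4 groups in 1 fit (0.0308), and not between KO cell types with upper-quartile factors (0.0557), without a filter (0.0687), with the block (0.381) or with all 4 groups (0.175). limma-voom called Scarb1 between KO cell types (0.0214).

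Reversed signs, as log2 fold changes, were confined among the settings other than leaving a library out to members not called. Between LEC genotypes Fabp5 gave -0.27 with the Xist covariate. Between IntSC genotypes Plin2 gave 0.0035 with library size alone, Scarb1 -0.061 with the Xist covariate and Pparg 0.072 with the block. Between WT cell types, limma-voom gave 0.071 for Lpl and -2.06 for Pparg, the Xist covariate -0.69 for Pparg, and the block 0.78 for Lpl and -3.92 for Pparg. Between KO cell types, limma-voom gave -1.92 for Fabp5 and -0.51 for Pparg, the Xist covariate -0.80 for Fabp5, and the block -0.96 for Fabp5 and -3.60 for Pparg. With 1 library left out, the sign turned within these ranges: -0.25 to 0.17 for Plin2 and -0.17 to 0.36 for Scarb1 between IntSC genotypes, -3.99 to 0.10 for Fabp5 and -6.03 to 0.82 for Pparg between WT cell types, -0.59 to 0.75 for Fabp5, -0.047 to 0.72 for Lpl and -4.91 to 2.91 for Pparg between KO cell types, and -0.53 to 0.013 for Fabp4, -0.27 to 4.16 for Fabp5 and -5.30 to 8.36 for Pparg in the interaction. The cause was not tested.

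Deviations of same-numbered libraries were at most weakly correlated (mean correlations -0.00367 to 0.0275, every pair under 0.1). Between WT cell types, however, all 4 same-numbered pairs were positive, at 0.0221 to 0.0382, beside a mean of -0.00549 over the other pairs. There, 7 of the 8 libraries with a partner correlated best with their own number. Whether a shared number marks a shared mouse within a genotype was not tested, and the main fits are unpaired. Across genotypes a shared number cannot mark 1 mouse, so the block there groups libraries by number alone. In the interaction the block was the number within each genotype. With the replicate block Plin2 was no longer called between WT (adjusted p = 0.184) or KO cell types (0.203), and the genes called fell from 2763 to 1596 in WT, 3302 to 895 in KO, 7 to 3 between LEC genotypes and 238 to 16 in the interaction. DESeq2 called 309, 376 and 1023 genes for the LEC genotypes, IntSC genotypes and interaction, against 7, 183 and 238. For LEC genotypes the count was 12 by limma-voom, 32 without a filter, 20 at a mean count of at least 10, 11 with the Xist covariate and 538 with all 4 groups in 1 fit, for IntSC genotypes 27 in that fit, and for the interaction 143 by limma-voom. With 1 library left out, the counts ran from 0 (without WT LEC 3) to 16 (without KO LEC 2) between LEC genotypes, from 99 to 186 between IntSC genotypes and from 161 to 461 (without KO LEC 2) in the interaction. Without Rn45s the mean of Fabp4 in KO LECs was 1296 CPM and of Gpihbp1 in WT LECs 458 CPM. Recovery of changes as small as those of Fabp4 and Gpihbp1 between LEC genotypes was not tested.

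Of the 39 calls of other lipid genes named above, 21 stood in every setting other than leaving a library out. The block ended 15, among them Hilpda (adjusted p = 0.0755) and Sar1b (0.0708) between KO cell types, Nrp1 between WT cell types (0.0610) and Mgll in the interaction (0.140). The fit of all 4 groups ended 5, limma-voom 4, the Xist covariate 3, library size alone, upper-quartile factors and no filter 2 each, and RLE factors 1. They included Slc27a3 (1.0), Mgll (0.0861) and Angptl2 (0.488) between IntSC genotypes with all 4 groups, and Apoe in the interaction by limma-voom (0.0863).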
